A study of Chlorella sp. HS2 with 12 samples.

Results

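Rubisco, the enzyme that fixes CO2 in photosynthesis, was followed through the 2 assembled genes that hold its chains in Chlorella sp. HS2, a green microalga. The small subunit gene is TRINITY_DN1599_c0_g1 and the large chain gene is TRINITY_DN1417_c0_g4. They are 2 of the 57640 genes in a count matrix made against a de novo assembly, that is, one built from the reads without a genome. The genes were taken by identifier, and each was set beside the sum of its assembly component, which gathers all entries that share the identifier up to the gene number. Both were among the 31491 genes that passed the filter on low counts and entered the tests.

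The 4 groups had 3 libraries each. They were the marine medium with 3% (w/v) sea salt in stationary phase (day 6), the marine medium in exponential phase (day 4), the freshwater medium in stationary phase (day 6) and the freshwater medium in exponential phase (day 4). All cultures were of the same strain, grew autotrophically in agitated photobioreactors supplied with CO2, and carried no labelled genetic change. The comparisons ask how salt changed the Rubisco transcripts in each phase, how they differed between phases in each medium, and whether the salt effect depended on the phase.

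Rubisco adds CO2 to ribulose bisphosphate in the entry step of the Calvin cycle. Its side reaction with oxygen feeds photorespiration. In green algae the large chain, which holds the active site, is encoded in the plastid genome (rbcL), whereas small subunits are encoded by nuclear RBCS genes, made in the cytosol and imported, and the holoenzyme holds as many of one chain as of the other. Libraries were made from poly(A)-selected RNA. Plastid transcripts mostly lack the long tails of nuclear mRNA, so values of the large chain cover only what this selection retained, and its part in the results was not tested.

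Each library held between 9378066 and 11280635 estimated read counts. The scaling factors between libraries (TMM, which corrects for differences in composition) were 1.11 to 1.40 in marine libraries and 0.738 to 0.870 in freshwater libraries, so the choice of scaling bears on every comparison between media. Marine stationary replicate 3 stood apart from replicates 1 and 2, with a median absolute log2 difference over tested genes of 0.570 and 0.566, against 0.122 to 0.391 for all other replicate pairs. The 3 marine exponential libraries share the stem of their library code, as do marine stationary replicates 1 and 2. The study's design names the 3 libraries of a group biological replicates, but the labels do not name separate cultures, so p-values measure only the spread between these libraries, which may be technical. Of 33 green-alga marker genes (hits to chlorophyll a-b binding proteins, granule-bound starch synthase, nitrate reductase or photosystem I subunit II), 28 to 32 had counts in each group, and their summed level in CPM (counts scaled to a common library size) was 6442 to 10951 in marine stationary, 11864 to 12583 in marine exponential, 4341 to 7114 in freshwater stationary and 112702 to 128725 in freshwater exponential libraries. Like the small subunit below, this sum was highest in freshwater exponential libraries, but unlike it the sum was lower in marine stationary than in marine exponential libraries. Its part in the results was not tested. The 40 bacterial marker genes, 8 to 24 of them with counts in a group, summed to 93.3 to 124, 70.4 to 121, 73.2 to 86.4 and 152 to 182 CPM in the same groups, and 0 genes matched the cyanobacterial marker list. In bulk RNA, fewer cells of a kind and less RNA per cell cannot be told apart.

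The small subunit entry is 3172 bases long as annotated, and its best Swiss-Prot hit is small chain 1 of the green alga Acetabularia peniculus (similarity 78.2%, E = 4.14e-37). The deposited annotation gives it 7 isoforms, each with a reading frame on the minus strand of the assembled sequence. The predicted proteins run from 177 to 333 residues. In 5 isoforms the RuBisCO_small domain is 1 stretch, and in the other 2 it is broken into 2 stretches, at residues 128 to 158 and 232 to 319 in the longest. Identity to the small chain 3 of Acetabularia peniculus is 70.7% in the unbroken isoforms and 71.3% in the aligned stretch of the broken ones.

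The large chain entry is 1656 bases long and has 1 isoform. Its reading frame, bases 73 to 1500 of the plus strand, encodes 475 residues that align from end to end, residue 1 to residue 475, with the large chain of Chlorella vulgaris at 97.9% identity. The N-terminal domain lies at residues 24 to 144 and the catalytic domain at residues 154 to 462. By the annotation table the best hit is the large chain of Oedogonium cardiacum, another green alga, at 97.9% similarity.

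In all, 4 genes had a Rubisco chain as best hit, 3 small and 1 large, none of them from a bacterium. The other 2 small subunit entries had few reads. TRINITY_DN5377_c0_g1, 1065 bases long and closest to RBCS-2 of Chlamydomonas reinhardtii, had 34.8, 32.6 and 0 counts in marine stationary libraries, 2.64, 2.65 and 0 in marine exponential, 0, 0 and 20.1 in freshwater stationary, and 4.32, 0 and 0 in freshwater exponential libraries. It passed no test in any of the 5 comparisons. TRINITY_DN27856_c0_g1, a stretch of 207 bases, was listed at 0 in every library. RBCS genes form families of near-identical copies in green algae, so reads of several copies may be merged in the main small subunit entry, and copies cannot be told apart here.

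The small subunit was the highest in freshwater exponential cultures. It had 1579, 1644 and 1322 CPM in marine stationary libraries (replicates 1 to 3). In marine exponential libraries it had 829, 817 and 769 CPM. In freshwater stationary libraries it had 719, 829 and 913 CPM, and in freshwater exponential libraries 11004, 9173 and 9661 CPM. The freshwater exponential libraries lie far above the other 9, marine stationary comes next, and the ranges of freshwater stationary and marine exponential overlap. As a share of all counts it took 0.191 ± 0.0427% in marine stationary, 0.0930 ± 0.00376% in marine exponential, 0.0681 ± 0.00915% in freshwater stationary and 0.740 ± 0.0870% in freshwater exponential libraries (SD, n = 3 each).

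The large chain had few reads in every library and fewest in marine exponential ones. Its estimated counts were 111, 138 and 156 in marine stationary libraries. In marine exponential libraries they were 21.2, 18.5 and 10.7, with exact Poisson 95% intervals of 13.2 to 32.4, 11.1 to 29.1 and 5.27 to 19.3 that cover counting error only. Freshwater stationary libraries held 239, 194 and 186 counts, and freshwater exponential libraries 230, 363 and 324. The marine exponential counts are the lowest of the 12 libraries, and the counts of freshwater stationary and freshwater exponential libraries overlap. Scaled, these are 7.63, 9.28 and 13.3 CPM in marine stationary, 1.68, 1.50 and 0.902 CPM in marine exponential, 29.0, 23.9 and 19.6 CPM in freshwater stationary, and 30.0, 49.5 and 46.7 CPM in freshwater exponential libraries. The order was freshwater exponential, freshwater stationary, marine stationary and marine exponential. No neighbours in that order overlapped, but the gap between the highest freshwater stationary library and the lowest freshwater exponential one was small, 29.0 against 30.0 CPM, and the test between these groups did not pass.

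**Figure D1:**
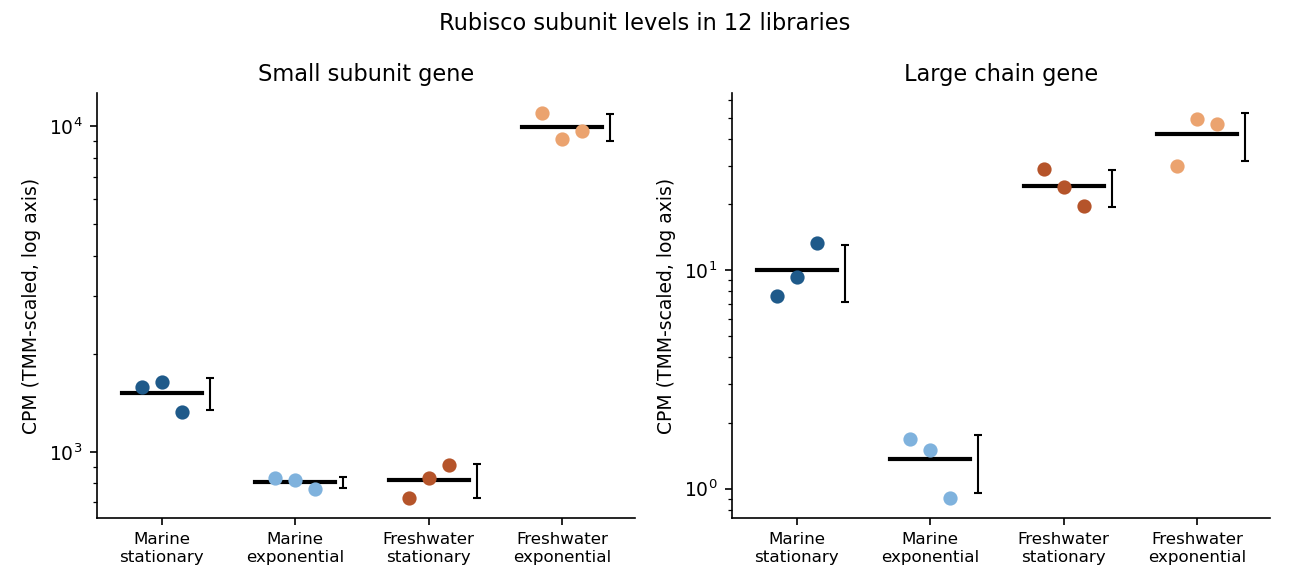
Level of the small subunit gene (left) and the large chain gene (right) in CPM on log axes, 1 point per library in 4 groups, with the group mean as a line and the SD as a bar (n = 3 each). The small subunit is at 9173 to 11004 CPM in freshwater exponential libraries and at or below 1644 CPM elsewhere, while the large chain is lowest in marine exponential libraries, at 0.902 to 1.68 CPM.

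The spread within groups differed between the subunits. The coefficient of variation of the small subunit was 11.3% in marine stationary, 3.93% in marine exponential, 11.9% in freshwater stationary and 9.53% in freshwater exponential libraries. For the large chain it was 29.0%, 30.0%, 19.5% and 25.0% in the same groups. Marine stationary replicate 3, which stood apart, was the lowest of its group for the small subunit and the highest for the large chain.

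Per kilobase of the annotated sequence, the small subunit averaged 478 ± 53.7 CPM per kb in marine stationary, 254 ± 9.98 in marine exponential, 259 ± 30.7 in freshwater stationary and 3136 ± 299 in freshwater exponential libraries (SD, n = 3 each). The large chain averaged 6.08 ± 1.76, 0.822 ± 0.247, 14.6 ± 2.85 and 25.4 ± 6.35 CPM per kb in the same groups. Among the 31491 tested genes the small subunit ranked 91, 216, 346 and 28 by this level, and the large chain ranked 14140, 22454, 6269 and 3383. The small subunit thus lay above the large chain per length in every group, with the length of 1 sequence standing for 7 isoforms.

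In exponential phase both subunits fell in marine medium. The small subunit averaged 805 ± 31.7 CPM in marine and 9946 ± 948 CPM in freshwater libraries (SD, n = 3 each), a log2 fold change of -3.63 (standard error 0.15, false discovery rate, FDR, = 3.29e-07 by edgeR's quasi-likelihood test with Benjamini-Hochberg adjustment). This is a 12.4-fold lower level. The large chain averaged 1.36 ± 0.409 CPM in marine and 42.1 ± 10.5 CPM in freshwater libraries, a log2 fold change of -4.92 (standard error 0.37, FDR = 7.76e-06 by edgeR). In this comparison 20.1% of tested genes were called in either direction, 9.3% higher and 10.8% lower, and the CPM of 33.9% did not overlap between the groups. Both calls held under all alternatives tried, with log2 fold changes of -3.94 to -2.99 for the small subunit and -5.40 to -4.28 for the large chain, leaving out 1 library included.

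In stationary phase the subunits moved apart. The small subunit was higher in marine medium, with 1515 ± 170 CPM in marine and 820 ± 97.5 CPM in freshwater libraries and a log2 fold change of 0.88 (standard error 0.14, FDR = 0.00138 by edgeR). The large chain was lower in marine medium, with 10.1 ± 2.92 CPM in marine and 24.2 ± 4.72 CPM in freshwater libraries and a log2 fold change of -1.26 (standard error 0.31, FDR = 0.0158 by edgeR). Of all tested genes 26.3% were called, 9.02% higher and 17.3% lower, and 44.9% did not overlap between the groups. Without marine stationary replicate 3 the changes were 0.97 and -1.52, and both calls held. The size of the small subunit change depended on the scaling, with 0.48 (FDR = 0.0296) when matched to the authors' table and 1.48 (FDR = 0.000222) with library totals only. The call of the large chain was lost with library totals only (-0.72, FDR = 0.0907), without a filter on low counts (-1.27, FDR = 0.0638) and with libraries of a shared code stem summed (-0.99, FDR = 0.244). It was also lost without marine stationary replicate 1 (-1.08, FDR = 0.108) or 2 (-1.21, FDR = 0.0906), and without freshwater stationary replicate 1 (-1.12, FDR = 0.0848) or 2 (-1.22, FDR = 0.0583).

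The scalings shift all genes with counts together, but genes without counts in either group compared stay at 0. With library totals only, the median log2 fold change of all tested genes was 0.60 in exponential phase and 0.81 in stationary phase, against 0.00 and 0.23 with TMM factors. With the scaling of the authors' table the exponential median was also 0.00, while the small subunit moved from -3.63 to -3.73. That 0.00, set beside the lists below, is thus not a centre that follows every scaling. In the fit to the exponential libraries alone the median was 0.23. Relative to the median of all genes in stationary phase, the small subunit was at 0.66 with TMM factors, 0.67 with library totals and 0.61 with the scaling of the authors' table. The large chain was at -1.49, -1.53 and -1.54 in the same settings.

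Within marine medium both subunits were higher in stationary phase. The small subunit had a log2 fold change of stationary over exponential of 0.91 (standard error 0.14, FDR = 0.0127 by edgeR), with 1322 to 1644 CPM in stationary and 769 to 829 CPM in exponential libraries. The large chain had 2.86 (standard error 0.34, FDR = 0.00373 by edgeR), a 7.24-fold higher level. Between phases in this medium 1.63% of tested genes were called, 514 genes, 0.311% higher and 1.32% lower, and 21.4% did not overlap between the groups. The count of calls ran from 82 to 1027 when 1 library was left out, was 1329 by the DESeq2 Wald test, and 3862 genes had an unadjusted p under 0.05 in edgeR. Without marine stationary replicate 3 the values were 1.00 and 2.60, and both calls held. The small subunit call was lost without marine exponential replicate 1 (1.05, FDR = 0.0649), 2 (1.03, FDR = 0.0712) or 3 (0.96, FDR = 0.0780). With libraries of a shared code stem summed, 1 marine exponential and 2 marine stationary samples were left, and neither subunit passed, at 0.75 (FDR = 1.00) and 2.84 (FDR = 0.716).

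Within freshwater medium the small subunit fell in stationary phase, with a log2 fold change of -3.60 (standard error 0.15, FDR = 7.27e-07 by edgeR), a 12.1-fold lower level. The large chain did not pass, at -0.80 (standard error 0.31, FDR = 0.131 by edgeR), with 19.6 to 29.0 CPM in stationary and 30.0 to 49.5 CPM in exponential libraries. It passed in the fit to the freshwater libraries alone, at -1.03 (FDR = 0.0263). Of all tested genes 10.9% were called, 6.46% higher and 4.42% lower, and 28.6% did not overlap between the groups.

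The salt effect differed between phases for both subunits. The stationary minus the exponential effect was 4.51 on the log2 scale for the small subunit (standard error 0.21, FDR = 1.80e-06 by edgeR) and 3.66 for the large chain (standard error 0.45, FDR = 0.000948 by edgeR). In this test 7.17% of tested genes were called, 2.38% higher and 4.79% lower. Without marine stationary replicate 3 the differences were 4.60 and 3.40. With shared-stem libraries summed the large chain difference was 3.86 and did not pass (FDR = 0.154), while that of the small subunit was 4.56 and passed (FDR = 0.00865). The comparisons share libraries, so a group that is high or low enters more than 1 of them.

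**Figure D2:**
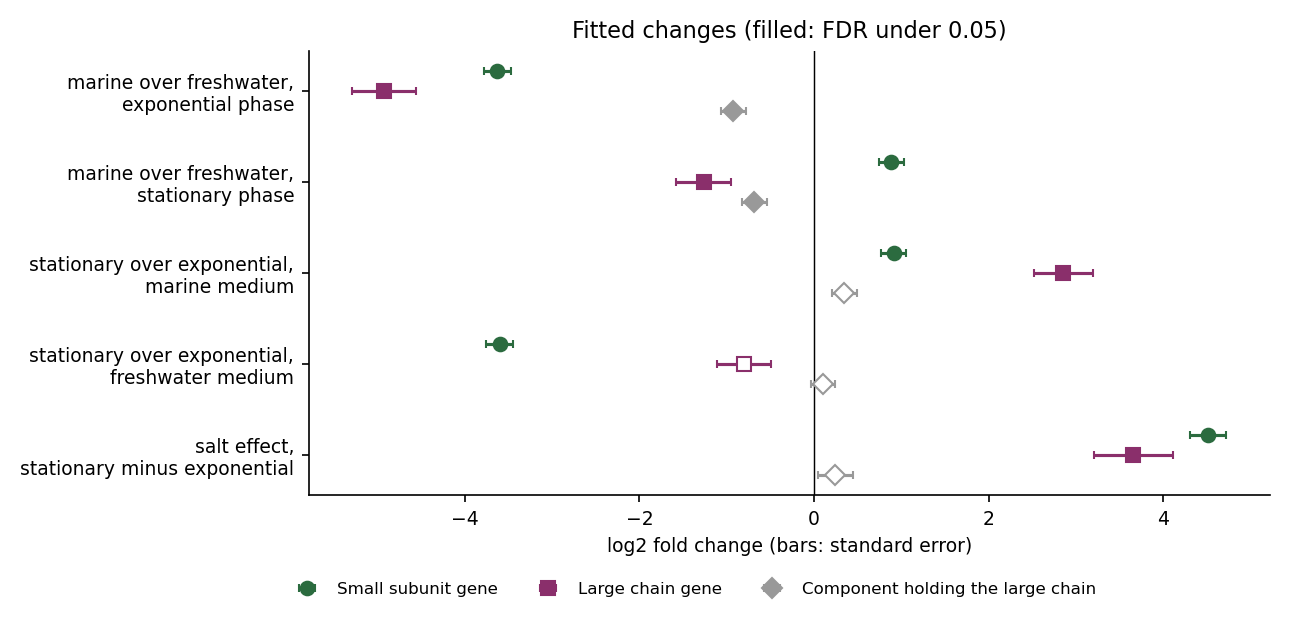
Log2 fold changes (points, bars are standard errors) of the small subunit gene, the large chain gene and the summed component that holds the large chain, in 5 comparisons, with filled symbols where the FDR was under 0.05. The large chain gene lies at -4.92 in exponential phase where its component lies at -0.93, and the 2 subunits lie on opposite sides of 0 for salt in stationary phase.

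The assembly component of the small subunit holds that 1 gene only, so its sum repeats the gene's counts. Its log2 fold changes in the fit over components, -3.88 and 0.98 for salt in exponential and stationary phase, differ from the gene's own only through the scaling over components. The component of the large chain holds 4 entries, and the large chain is a minor one by counts. TRINITY_DN1417_c0_g1, 7210 bases long, has proteasome subunit beta type-4 as its best hit, part of the protein-degrading complex and unrelated to Rubisco. Of its 17 isoforms 12 carry a proteasome reading frame and 7 a frame with WD40 repeats on the opposite strand. The library kit keeps no strand information, so reads of these overlapping frames, and of any antisense RNA at either subunit, cannot be told apart. The other 2 entries have no hit: TRINITY_DN1417_c0_g2 was at 0 in all libraries, and TRINITY_DN1417_c0_g3 had 0 to 99.6 counts.

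The proteasome entry had 145, 146 and 146 CPM in marine stationary libraries, 139, 130 and 126 in marine exponential, 268, 201 and 283 in freshwater stationary, and 154, 157 and 207 in freshwater exponential libraries. It made up 90.8 ± 2.36%, 98.6 ± 0.881%, 90.8 ± 1.82% and 80.5 ± 3.94% of the component's counts in these groups. The large chain made up 6.24 ± 1.66% in marine stationary, 1.01 ± 0.262% in marine exponential, 8.95 ± 2.21% in freshwater stationary and 19.5 ± 3.94% in freshwater exponential libraries (SD, n = 3 each). Per length of each entry its share was larger, at 14.9 ± 3.19%, 3.92 ± 0.998%, 28.9 ± 7.24% and 51.1 ± 6.10%.

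The share of the large chain did not overlap between marine and freshwater libraries in exponential phase, and the difference was -18.5 percentage points (2-sided exact permutation p = 0.1, adjusted p = 0.109 over 12 tests). That is the smallest p that 3 libraries against 3 allow. In stationary phase the difference in share was -2.71 points and the groups overlapped (exact permutation p = 0.2, adjusted p = 0.2). Between stationary and exponential phase the share differed by 5.24 points in marine and by -10.6 points in freshwater medium, with no overlap in either (exact permutation p = 0.1, adjusted p = 0.109 each).

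**Figure D3:**
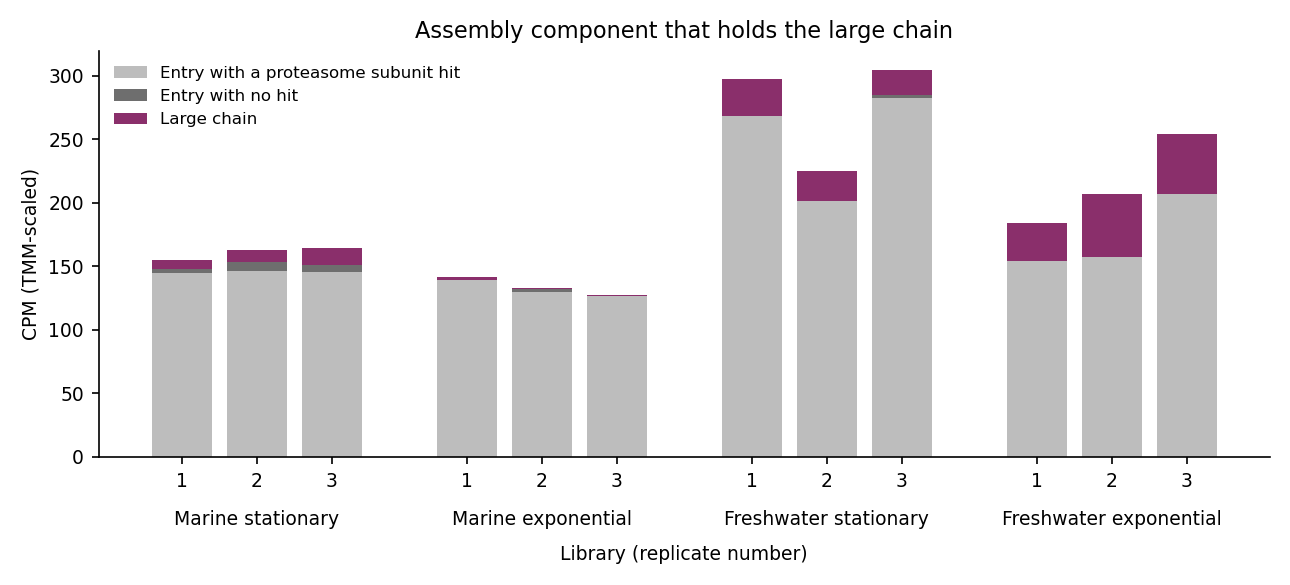
Stacked level in CPM of the entries in the assembly component of the large chain, 1 bar per library in 4 groups. The entry with a proteasome hit fills most of each bar, and the large chain part is barely visible in marine exponential libraries, at 0.902 to 1.68 CPM, and widest in freshwater exponential libraries, at 30.0 to 49.5 CPM.

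The summed component of the large chain, by counts mostly the proteasome entry, gave smaller changes in the same comparisons. The component averaged 161 ± 4.75 CPM in marine stationary, 134 ± 7.01 in marine exponential, 275 ± 43.7 in freshwater stationary and 215 ± 35.4 in freshwater exponential libraries, on the gene scale. Its log2 fold change for salt was -0.93 (standard error 0.14, FDR = 0.00112 by edgeR over components) in exponential phase, where 19.3% of components were called, and -0.68 (standard error 0.14, FDR = 0.00732) in stationary phase, where 26.7% were called. Both calls were lost with library totals only, at -0.05 and -0.20, and with shared-stem libraries summed, at -0.56 and -0.59. Neither phase comparison passed for the component, at 0.35 (FDR = 0.378) in marine and 0.10 (FDR = 0.783) in freshwater medium, where 1.1% and 9.23% of components were called. The difference between the salt effects was 0.24 (standard error 0.20, FDR = 0.620), with 5.69% of components called, and its sign changed under 4 alternatives and without either of 2 libraries. The proteasome entry itself was at -0.39 in exponential phase (FDR = 0.0942 by edgeR) and lower at -0.78 in stationary phase (FDR = 0.00429 by edgeR).

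Set against each other within a library, the subunits need no scaling between libraries. Their ratio still depends on how much plastid RNA the poly(A) selection retained in each library. There were 207, 177 and 99.3 small subunit counts for each large chain count in marine stationary libraries. Marine exponential libraries had 493, 544 and 853, freshwater stationary libraries 24.7, 34.7 and 46.5, and freshwater exponential libraries 366, 185 and 207. The large chain was thus lowest relative to the small subunit in marine exponential and highest in freshwater stationary libraries. On the log2 scale, with 0.5 added to each count, the ratio of large to small averaged -7.26 ± 0.56 in marine stationary, -9.21 ± 0.40 in marine exponential, -5.09 ± 0.46 in freshwater stationary and -7.91 ± 0.53 in freshwater exponential libraries (SD, n = 3 each). In marine stationary replicate 3 the ratio was -6.63, against -7.69 and -7.46 in replicates 1 and 2. The 7 other plastid-encoded genes described below summed to 279 CPM in that replicate, against 80.6 and 105 CPM. The part of retained plastid RNA in the ratio was not tested.

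The ratio was lower in all 3 marine libraries than in any freshwater library of the same phase, by 1.30 in exponential phase (difference -1.30) and by 2.17 in stationary phase (difference -2.17). It was higher in stationary than in exponential phase in both media, with differences of 1.95 in marine and 2.82 in freshwater medium. All 4 differences had the smallest p that the design allows (2-sided exact permutation p = 0.1, adjusted p = 0.109 over 12 tests). The component that holds the large chain is by counts mostly the proteasome entry, at group means of 80.5% to 98.6%. With components in place of genes the ratio is thus mainly that of the proteasome entry to the small subunit, and does not measure the large chain. The exponential difference turned to 2.95 and the marine phase difference to -0.64. The stationary difference was then -1.65 and the freshwater phase difference 3.96, again with exact permutation p = 0.1 each.

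**Figure D4:**
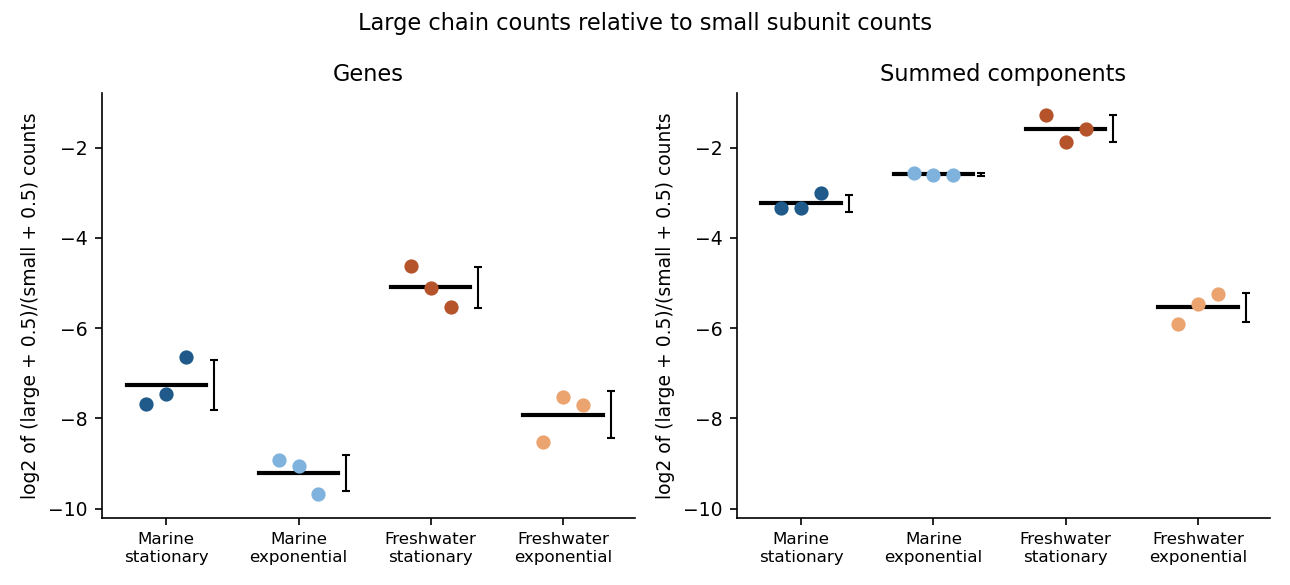
Log2 ratio of large chain to small subunit counts in each library, for the genes (left) and for the summed components (right), with group means as lines and SD as bars (n = 3 each). For the genes, marine libraries lie below freshwater libraries of the same phase, with marine exponential lowest at a mean of -9.21, while for the components freshwater exponential is lowest at a mean of -5.54. The component of the large chain is by counts mostly the proteasome entry, so the right panel does not measure the large chain.

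The authors' deposited table, whose scaling differs, gives the small subunit a mean signal of 13284 in marine stationary, 7883 in marine exponential, 9506 in freshwater stationary and 104827 in freshwater exponential cultures. For the large chain the authors' deposited table gives 88.3, 13.5, 281 and 445 in the same order. In the authors' deposited table the log2 fold changes of marine over freshwater are -3.73 in exponential and 0.48 in stationary phase for the small subunit. They are -5.04 and -1.67 for the large chain in the authors' deposited table. Adjusted p-values in the authors' deposited table are 0.000377 for the stationary change of the small subunit and 0.000132 for that of the large chain.

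The genes around Rubisco were taken as 5 lists of product names. A total of 54 list genes were tested, of which 7 had a best hit in bacteria. The Calvin cycle enzymes, which regenerate the CO2 acceptor and reduce the fixed carbon, were mostly lower where the small subunit was. In marine exponential libraries 8 of 13 tested genes were lower and 1 was higher, the other 4 not passing, with a median log2 fold change of -1.19 against 0.00 for all tested genes. Of all tested genes 10.8% were lower and 9.3% higher in that comparison. For salt in stationary phase 9.02% of all tested genes were higher and 17.3% lower. In the list 5 were higher, 2 lower and 6 not called there, with a median of 0.42 against 0.23. That split turned to 2 higher and 4 lower with the scaling of the authors' table, and in exponential phase library totals only left 1 higher and 4 lower, while summing shared-stem libraries left 1 lower.

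Phosphoribulokinase (TRINITY_DN55859_c0_g1), which makes the CO2 acceptor of Rubisco, was the closest to the small subunit among the named enzymes of the cycle in its salt change in exponential phase. It averaged 106 ± 45.5 CPM in marine stationary, 79.1 ± 3.95 in marine exponential, 70.2 ± 24.8 in freshwater stationary and 1419 ± 234 in freshwater exponential libraries. Its log2 fold change for salt was -4.16 in exponential phase (FDR = 3.15e-05 by edgeR) and 0.59 in stationary phase, which did not pass (FDR = 0.197), though it passed without marine stationary replicate 3 (0.91, FDR = 0.0400) and with library totals only (1.22, FDR = 0.0395). With shared-stem libraries summed its exponential call was lost (-4.08, FDR = 0.0574), and aldolase was the 1 gene still lower. Fructose-bisphosphate aldolase (TRINITY_DN2275_c0_g1), which joins triose phosphates, fell by 2.79 on the log2 scale in marine exponential libraries. Ribulose-phosphate 3-epimerase (TRINITY_DN5020_c0_g1), which supplies ribulose phosphate, was lower in exponential phase (107 ± 4.45 CPM in marine and 215 ± 52.5 CPM in freshwater libraries, not called with library totals only) and higher in stationary phase (1.64) in marine medium. A sedoheptulose-bisphosphatase gene (TRINITY_DN1260_c0_g3) was the 1 gene higher in exponential phase, at 0.56 (FDR = 0.00824), and at 0.42 in stationary phase (FDR = 0.0307), a call lost with the scaling of the authors' table (0.02) and without marine stationary replicate 3 (0.34). The other tested entry of this enzyme, TRINITY_DN120_c1_g1, named after its values were seen, was lower in exponential phase (-1.04, FDR = 0.000489 by edgeR). It was higher in stationary phase (0.86, FDR = 0.00177 by edgeR). Between phases in freshwater medium 8 of the 13 were lower in stationary phase and 5 not called (median -1.49 against 0.27). In marine medium 1 was lower and 12 not called (median 0.00 against 0.01). That marine median is the value of a glyceraldehyde-3-phosphate dehydrogenase entry at 0 in all marine libraries, whose change could not be measured there. Of all tested genes 4.42% were lower in stationary phase in freshwater and 1.32% in marine medium.

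Helpers of Rubisco did not move as 1 group. Of 8 tested genes for activation and assembly, 3 were lower and 1 higher in marine exponential libraries, the other 4 not passing (median 0.19 against 0.00 for all genes). Of all tested genes 10.8% were lower and 9.3% higher there. Library totals only turned the counts of the list to 1 lower and 4 higher. Rubisco activase (TRINITY_DN4122_c0_g1), which frees blocked active sites, had 188 ± 4.95 CPM in marine and 152 ± 53.7 CPM in freshwater exponential libraries, a change that did not pass (0.30, FDR = 0.363 by edgeR). It was higher in marine stationary libraries, with 93.6 ± 4.53 against 40.1 ± 10.4 CPM in freshwater stationary ones (1.22, FDR = 0.00564 by edgeR). Another activase gene, TRINITY_DN170_c2_g1, named after its values were seen, went the other way in that comparison, with 23.2 ± 3.69 CPM in marine and 59.4 ± 3.38 CPM in freshwater stationary libraries (-1.35, FDR = 0.000697 by edgeR), and the activase entry TRINITY_DN5048_c0_g1 was at 0.51 and did not pass (FDR = 0.474). With shared-stem libraries summed 0 genes of the list passed in stationary phase, and 1 passed in exponential phase. The large-subunit-binding chaperonin subunits, which fold the large chain, were lower in marine exponential libraries, at -1.58 for alpha (TRINITY_DN11092_c0_g4) and -1.03 for beta (TRINITY_DN78_c0_g3), and neither passed with library totals only (-0.95 and -0.40). Their 20 kDa co-chaperonin (TRINITY_DN3514_c0_g1) was at -2.14. A gene with its best hit to carboxyarabinitol-1-phosphatase (TRINITY_DN3765_c0_g3), which in plants degrades an inhibitor bound by Rubisco, went the other way, with 120 ± 6.10 CPM in marine and 9.77 ± 2.97 CPM in freshwater exponential libraries (3.62, FDR = 2.31e-06 by edgeR). The large-subunit methyltransferase (TRINITY_DN883_c0_g2) stayed between mean levels of 16.4 and 18.2 CPM in the 4 groups and was called in no comparison.

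The other plastid-encoded genes offer the closest setting for the large chain. Of 7 tested, 4 were lower and 3 not called in marine exponential libraries, where 10.8% of all tested genes were lower. The median log2 fold change of the 7 was -2.57. In stationary phase 2 were higher and 5 not called for salt (median 1.42), where 9.02% of all tested genes were higher and the large chain was lower. Without marine stationary replicate 3, however, only 1 passed, D1, and it was lower (-1.29, FDR = 0.0149 by edgeR). The scaling of the authors' table also ended both calls. Within marine medium 3 of 7 were higher in stationary phase (median 3.07 against 0.01 for all tested genes, and 2.15 without that replicate). Of all tested genes 0.311% were higher in that comparison. Photosystem II protein D1 (TRINITY_DN51627_c0_g1), a core protein of the water-splitting complex, had 24.8, 32.0 and 105 CPM in marine stationary libraries and 5.55, 7.85 and 5.83 CPM in marine exponential ones. It had 63.5, 89.1 and 56.6 CPM in freshwater stationary and 45.0, 69.3 and 64.4 CPM in freshwater exponential libraries. The summed level of the 7 genes was 80.6, 105 and 279 CPM in marine stationary libraries, with replicate 3 highest. The sum was 27.2 to 31.8 CPM in marine exponential, 88.6 to 139 CPM in freshwater stationary and 120 to 177 CPM in freshwater exponential libraries. With shared-stem libraries summed 0 of the 7 passed in the 4 comparisons of groups.

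**Figure D5:**
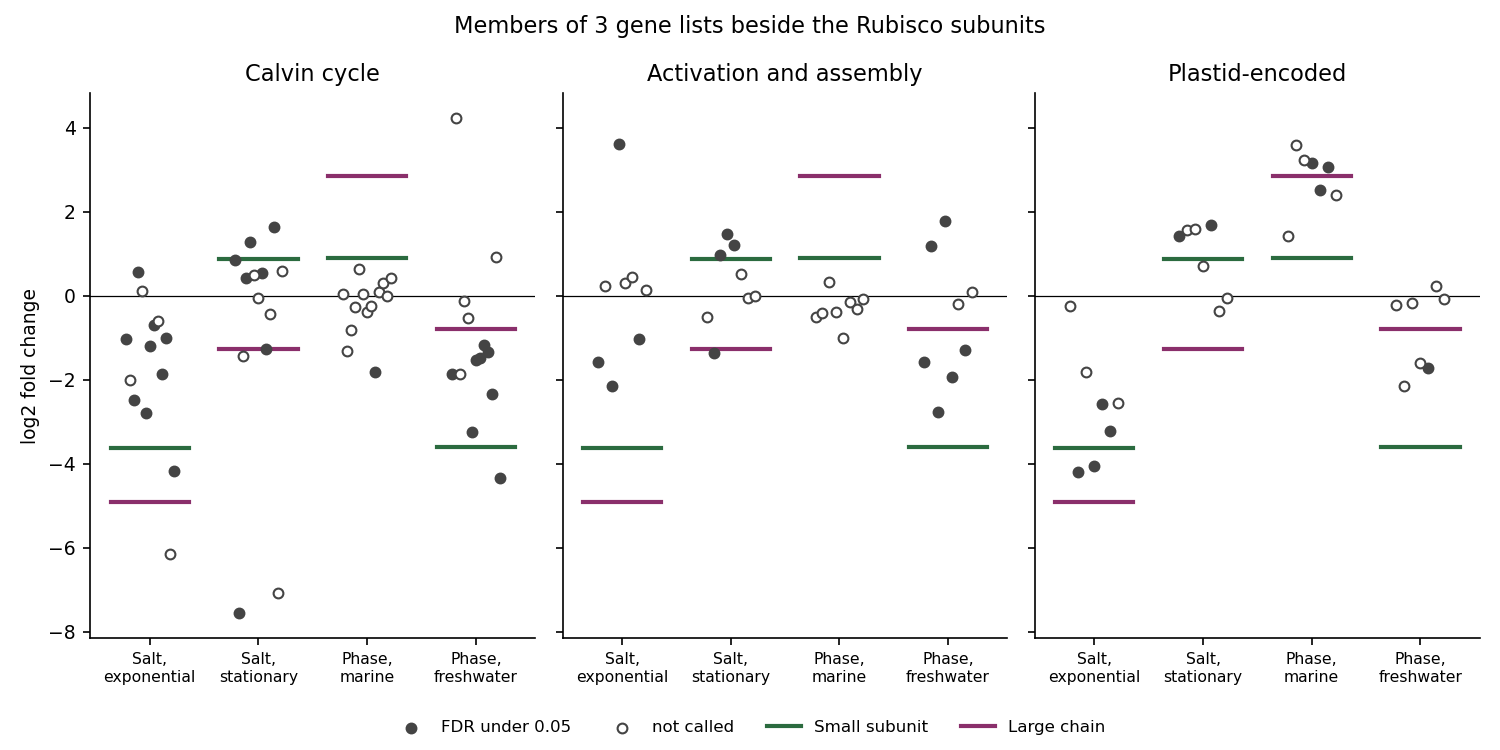
Log2 fold changes of tested genes in 3 lists (points, filled where the FDR was under 0.05) beside those of the small subunit and the large chain (lines), for salt in each phase and for phase in each medium. Calvin cycle genes lie mostly below 0 where the small subunit does, plastid-encoded genes lie above 0 for phase in marine medium as the large chain does, and fitted values below -6 belong to genes at or near 0 in marine libraries.

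Genes for CO2 supply and photorespiration were mixed. Of 6 tested genes with a best hit named carbonic anhydrase, an enzyme that interconverts CO2 and bicarbonate, 1 was higher and 2 lower in marine exponential libraries. There 9.3% of all tested genes were higher and 10.8% lower. Of the 6 genes 2 were at 0 in all marine exponential libraries, among them TRINITY_DN19071_c0_g1, 1 of the 2 lower. What these genes do rests on the name of the hit. With shared-stem libraries summed 0 passed. The gene with the highest mean over the 4 groups, TRINITY_DN2396_c0_g1 with its best hit in a bacterium, had 15.4 ± 1.11 CPM in marine and 4.96 ± 1.62 CPM in freshwater exponential libraries (1.63, FDR = 0.00516 by edgeR). Of 20 photorespiration genes 2 were higher and 9 lower in exponential phase, 6 of the 9 being at 0 in all marine libraries. The median was -1.30 against 0.00 for all tested genes. Of the 20 genes 7 were at 0 in all marine libraries and had counts in freshwater libraries only, so the median leans on them. It was the same with these genes set to the bound of 3 counts over the group, which does not remove their weight. Library totals only gave 6 higher and 8 lower, and summed shared-stem libraries 0 higher and 1 lower. In stationary phase 5 were higher and 9 lower, against 9.02% and 17.3% of all tested genes, with a median of -0.56 against 0.23. Of the 9 lower in stationary phase 6 were again at 0 in all marine libraries, and the median again takes in the 7 genes at 0. Library totals only gave 8 of each there, scaling as in the authors' table gave 5 higher and 13 lower, and summed shared-stem libraries 3 higher and 0 lower. The glycine dehydrogenase gene with the highest mean CPM (TRINITY_DN2890_c0_g1), which cleaves photorespiratory glycine, was higher in marine medium in both phases. Its log2 fold change was 1.36 in exponential and 2.53 in stationary phase, the exponential call being lost with shared-stem libraries summed (1.45). The glycine dehydrogenase entries TRINITY_DN19790_c0_g1 and TRINITY_DN5581_c0_g1, named after their values were seen, have best hits in bacteria. They were at 0 in all marine libraries and were called lower in marine medium in both phases. The aminomethyltransferase of the same complex (TRINITY_DN1935_c0_g3) was lower in exponential phase, at -2.35, a call also lost with shared-stem libraries summed (-2.26).

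Across the 12 libraries the profile of the small subunit was most like those of nuclear photosystem genes. Among 2884 tested genes with an average of 3 or more on the log2 CPM scale and a hit with E up to 1e-20, the highest Pearson correlations of log2 CPM were with photosystem I subunit O (TRINITY_DN3708_c0_g1, r = 0.991) and photosystem I subunit XI (TRINITY_DN5791_c0_g1, r = 0.990). Next came photosystem I subunit III (TRINITY_DN7318_c0_g1, r = 0.989), the antenna protein CP26 (TRINITY_DN2947_c0_g1, r = 0.985) and a chlorophyll a-b binding protein (TRINITY_DN1819_c1_g3, r = 0.985). A total of 114 genes reached r = 0.9. These correlations share the libraries and rest largely on the freshwater exponential group, in which subunit O averaged 308 ± 4.11 CPM against 13.7 ± 0.688 to 24.4 ± 3.99 CPM in the other groups.

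The large chain had looser matches. Of 2883 genes 7 reached r = 0.9, led by the plastid-encoded D1 protein (r = 0.919). The others of the first 5 were a haloacid dehalogenase-like hydrolase (TRINITY_DN751_c1_g2, r = 0.913), a plastid cytochrome P450 97B1 (TRINITY_DN3402_c0_g4, r = 0.909), and the cytosolic ribosomal proteins S2 (TRINITY_DN1461_c0_g2, r = 0.905) and L13a (TRINITY_DN3240_c0_g1, r = 0.903). Between the 2 subunits r was 0.612 over the 12 libraries, while r of the small subunit was 0.974 with phosphoribulokinase and 0.970 with aldolase. Counts of the large chain are low, and the part of counting error in its correlations was not tested.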

How the data were processed

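RNA of 12 samples was poly(A)-selected and sequenced with a kit that keeps no strand, per the labels' protocols. The authors deposited expected counts per assembled gene, not normalised, from a Trinity assembly (per the series' design text) with Bowtie and RSEM 1.3.2 (per the submitters' processing notes). The table of comparisons deposited by the authors holds a mean signal per group, log2 fold changes and adjusted p-values, made with SVCD normalisation per the series' design text and DESeq2 1.20.0 per the processing notes. Gene lengths, best Swiss-Prot hits with E-values and percent similarity come from the authors' deposited Blast2GO table, and isoforms from their deposited Trinotate report.

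Expected counts were rounded to whole numbers. In edgeR 4.0.16 (R 4.3.3), filterByExpr by group kept 31491 genes, TMM scaled the libraries, and a model with 1 mean per group gave 5 contrasts over all 12 libraries. Quasi-likelihood p-values were adjusted by the Benjamini-Hochberg method over all tested genes, and an FDR under 0.05 was called. The same fit ran on counts summed over 48381 components, 27671 of them tested. CPM of the Rubisco genes use unrounded counts and scaled library sizes, and CPM of other genes rounded counts. Shares and ratios per library were compared by exact permutation (scipy 1.17.1). Depth was 9378066 to 11280635 counts per library, and intervals cover counting error only.

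The 2 genes, the lists and the rules were chosen with earlier results of these data known. Named genes were both subunits, all entries of their components, other Rubisco hits, the gene with the highest mean CPM of each list product, and the 5 genes most like each subunit. Genes marked as named after their values were seen lie outside this rule. The 5 lists were searched as 43 product names, of which 12 matched no gene. Alternatives were DESeq2 size factors, no filter, the DESeq2 1.42.0 Wald test, only the groups compared, genes with 15 or more counts in each medium, a replicate block, summed shared-stem libraries, shares per length, a pseudocount of 2 and leaving out each library. Library totals only, scaling matched to the authors' table, and list counts under other settings were chosen after seeing the data. No pair of replicates agreed within sampling noise (chi-square per degree of freedom 34.1 to 88.7). Pairs of libraries with a shared code stem had the lowest values, 34.1 to 40.0, against 44.9 to 88.7 for all other pairs.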

Additional observations from a re-analysis of the deposited data

Results flagged for a closer look

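The salt effect differed between stationary and exponential phase by a test of that difference (edgeR's quasi-likelihood test, FDR under 0.05) for both subunits, 4.51 on the log2 scale for the small subunit and 3.66 for the large chain, stationary minus exponential. The same test passed for 17 of the named list genes, and for 0 genes of the 5 lists with shared-stem libraries summed. The call of phosphoglycolate phosphatase was also lost with DESeq2 size factors (-0.65, FDR = 0.103), and that of glycine dehydrogenase with library totals only (1.14, FDR = 0.0711) and the scaling of the authors' table (0.88, FDR = 0.104). In the Calvin cycle list the difference was 4.75 for phosphoribulokinase, 1.13 for phosphoglycerate kinase, 3.29 for fructose-bisphosphate aldolase, 1.42 for fructose-1,6-bisphosphatase, 1.24 for transketolase and 2.64 for ribulose-phosphate 3-epimerase. The 17 are only genes with the highest mean CPM of their product. Outside them the sedoheptulose-bisphosphatase entry TRINITY_DN120_c1_g1 also passed, at 1.90 (FDR = 0.000364 by edgeR). In the whole Calvin cycle list 7 of 13 tested genes were higher and 0 lower.

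Among Rubisco helpers it was 3.11 for the 20 kDa chaperonin and -2.15 for carboxyarabinitol-1-phosphatase. The activase entry TRINITY_DN170_c2_g1, outside the naming rule, also passed, at -1.58 (FDR = 0.0054 by edgeR). Of the 8 tested helpers 1 was thus higher and 2 lower. In the whole photorespiration list 6 of 20 tested genes were higher and 1 lower, not all of them named here. Photorespiration genes gave -0.83 for phosphoglycolate phosphatase, 3.25 for serine-glyoxylate aminotransferase, 1.17 for glycine dehydrogenase, 1.75 for aminomethyltransferase and 1.00 for hydroxypyruvate reductase, the second and the last of these with a best hit in a bacterium. Plastid-encoded genes gave 2.84 for photosystem II protein D1, 4.25 for CP43, 4.76 for CP47 and 5.76 for ATP synthase subunit alpha. Over all tested genes 7.17% passed and the median difference was -0.29.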

How the results depend on the processing

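Leaving out 1 library at a time moved the large chain change for salt in stationary phase between -1.52 and -1.08, and the small subunit change between phases in marine medium between 0.85 and 1.05 for the gene and 0.85 and 1.03 for its component. The component of the large chain then ranged from -0.0334 to 0.50 between phases in freshwater medium (negative without freshwater stationary replicate 3, -0.0334, or freshwater exponential replicate 1, -0.00652) and from -0.25 to 0.38 for the difference of salt effects (negative without marine exponential replicate 1, -0.08, or freshwater stationary replicate 2, -0.25). Genes called ranged from 3518 to 6309 and from 3555 to 6017 for salt in exponential and stationary phase, from 82 to 1027 and from 2151 to 3669 for phase in marine and freshwater medium, and from 981 to 2853 for the difference, against 6320, 8293, 514, 3425 and 2258 with all libraries. The large chain in stationary phase lost its call without a filter (-1.27), with shared-stem libraries summed (-0.99) and with library totals only (-0.72), and gained one between phases in freshwater medium in the fit to those groups alone (-1.03). Summing shared-stem libraries also ended the calls between phases in marine medium (0.75 for the small subunit, 0.72 for its component, 2.84 for the large chain), of the large chain's difference of salt effects (3.86) and of its component's salt effects (-0.56 and -0.59). Library totals only gave that component -0.0475 and -0.20 for salt and 0.55 between phases in freshwater medium, now past the threshold. Its difference of salt effects was -0.10 with genes found in both media, -0.0304 with summed libraries, -0.15 with library totals and -0.0539 with the scaling of the authors' table. Genes called in the 5 comparisons were 4010, 4069, 257, 2221 and 1402 without a filter and 885, 1728, 0, 888 and 55 with summed libraries (edgeR, with 1254 genes at an unadjusted p under 0.05 where the count was 0). The DESeq2 Wald test called 1329, 5248 and 3484 in the last 3, DESeq2 size factors 329 and the authors' scaling 982 between phases in marine medium, and the restriction to genes found in both media 3925 for salt in stationary phase. The causes were not tested, except that summing and leaving out leave fewer samples.

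Replicate numbers did not pair the samples: deviations of same-numbered libraries correlated at -0.05 to 0.01, with 0 of 12 pairs over 0.1. A replicate block changed no call of either subunit gene (small subunit -3.63 and 0.88 for salt, large chain -4.91 and -1.27) and called 4143 and 3973 genes for salt in exponential and stationary phase. Few reads limit the precision of the large chain, with 10.7 to 21.2 counts in marine exponential libraries.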
